A study of Mus musculus with 6 samples.

Results

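The genes described here encode the pore-forming subunits of voltage-gated ion channels, namely the sodium channel alpha subunits (Scn), the calcium channel alpha1 subunits (Cacna1) and the potassium channel alpha subunits of the Kcna, Kcnb, Kcnc, Kcnd, Kcnh and Kcnq families. Members were all genes of the array's platform annotation whose symbol follows these family names, which gave 43 of the 19087 genes measured. The non-coding transcript Kcnq1ot1 was left out as it encodes no pore, and some genes of these families are not analysed here. RNA came from cultured mouse sympathetic neurons, either untreated (control, 3 arrays) or given 500 U/ml of IFN-γ (3 arrays), both for 24 h. Each array set neuron RNA, in the Cy5 dye, against untreated sympathetic cervical ganglia of postnatal day 5, in the Cy3 dye, so every value below is a log2 ratio of cultured neurons over ganglion, and 0 means equal signal. Strain and age of the neurons, and whether the replicates came from separate cultures, are not given in the sources used here, so a p-value here covers only the variation among these 6 arrays, and that variation may be technical.

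Voltage-gated channels shape the action potential: sodium channels carry its upstroke, potassium channels repolarise the membrane and set how often a neuron fires, and calcium channels couple firing to transmitter release and to signalling in the cell body. Sympathetic neurons are known for the sodium channel Scn9a (Nav1.7), for N-type calcium channels (Cacna1b) that trigger noradrenaline release, for the A-type potassium current of Kcnd and Kcna4 channels, and for the M-current of Kcnq channels, which muscarinic receptors close. The ganglion reference holds glia, fibroblasts, vessels and other cells beside neurons, so a ratio compares whole cell mixtures, and fewer cells of a type cannot be told from less RNA per cell. Signal and background of the features were not analysed here. A ratio of about 0 may therefore belong to a channel with equal signal or to one too dim to measure, and a ratio ranks no gene above another in abundance. The dyes were never exchanged, so any bias between them is part of each ratio.

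Across the series, Pearson's r between arrays over all genes, which are not independent replicates, was 0.61 to 0.71 within controls, 0.61 to 0.78 within treated arrays and 0.35 to 0.72 between the groups. All 7 measured genes of a list of 8 known targets of interferon-gamma passed the test with higher ratios, among them Irf1 (2.29 ± 0.17, SE, n = 3 per group, adjusted p = 0.00153). Treated array 2 stood closer to the controls than arrays 1 and 3 did for genes far from 0. Its r over all genes was 0.72 with control array 2, and 0.56 and 0.58 with control arrays 1 and 3. Over the 338 genes with a control mean above 1, the median shift from the control mean was -0.70, 0.02 and -0.56 on treated arrays 1, 2 and 3, and over the 740 genes with a control mean below -1 it was 0.85, -0.18 and 0.69. Differences that array 2 moves most are therefore also given without it. That choice was made on these same values, and control array 2, which treated array 2 most resembles, stays in those fits. Adjusted p values without treated array 2 are therefore descriptive only. Both gene sets were picked by their control mean, and this selection alone can bring treated values closer to 0. The 12 measured markers of sympathetic neurons, such as Th and Dbh, had medians of 0.22, 0.24 and -0.21 on control arrays 1, 2 and 3. On treated arrays 1, 2 and 3 their medians were -0.12, 0.05 and -0.29. A ratio alone does not show that a cell type is present or absent.

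In untreated neurons, the highest ratios of any member were those of a pair of sodium channel genes. Scn9a stood at 1.61 ± 0.67 (SD, n = 3) and Scn11a at 1.40 ± 0.44, which are 3.04 and 2.63 times the ganglion level, while most calcium and potassium channel genes lay within 0.5 of 0. The family medians were 0.37 for the 8 Scn genes, 0.17 for the 10 Cacna1 genes, 0.01 for the 7 Kcna genes, -0.30 for the 3 Kcnc genes, -0.25 for the 3 Kcnd genes, 0.03 for the 8 Kcnh genes and 0.00 for the 3 Kcnq genes, with Kcnb2 alone at 0.43, against -0.03 for all genes. Scn11a was the single member past 1, which is 2-fold, on all 3 control arrays, a level that 0.592% of all genes passed, and no member was below -1 on all of them, as 2.12% of all genes were. Of the members, 12 were above 0 on every control array, which is 27.9% beside 27.5% of all genes, and 8 were below 0 on every control array, which is 18.6% beside 32.6%. These levels are described without a test, since the ganglion appears in one dye throughout and its variation cannot be separated out.

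**Figure D1:**
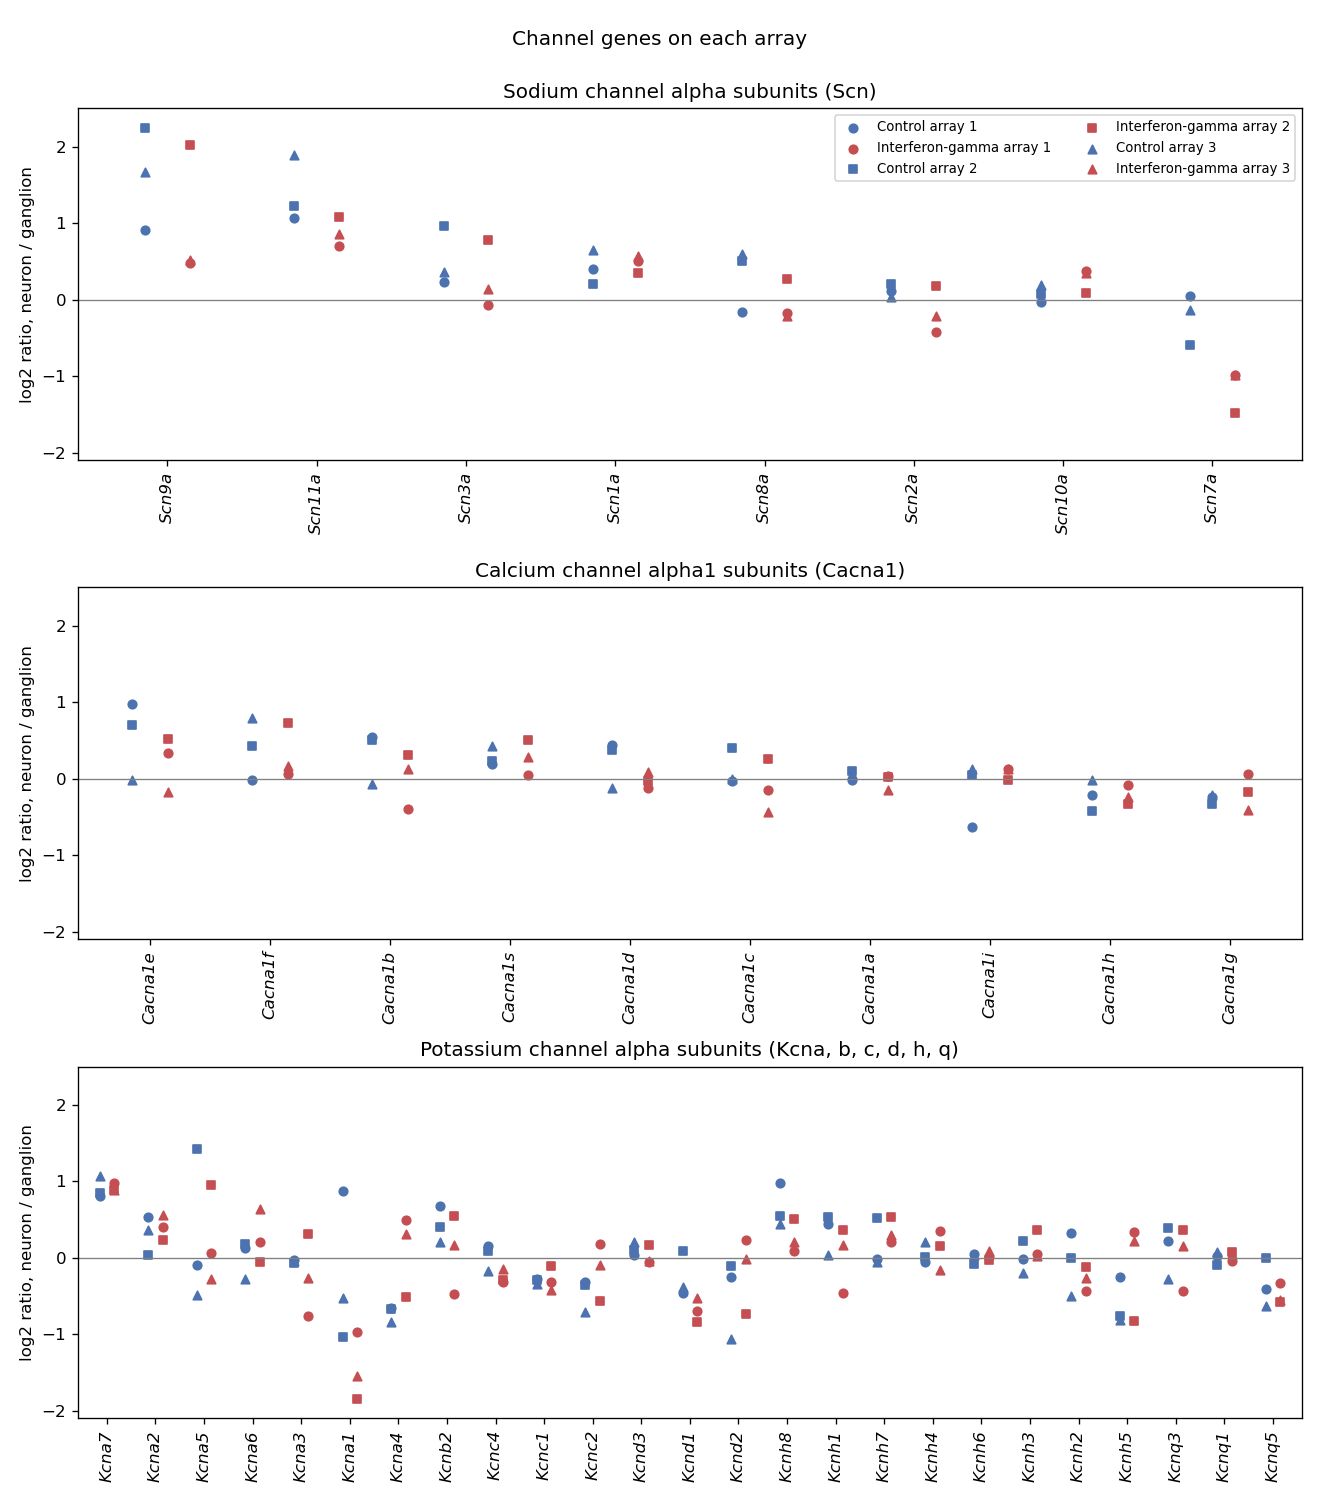
Log2 ratio of cultured neurons over ganglion reference (vertical axis) for each of the 43 channel genes, with control arrays in blue and interferon-gamma arrays in red and array numbers 1, 2 and 3 as circles, squares and triangles. Scn9a and Scn11a have the highest control means, 1.61 and 1.40, and most other members lie near 0 in both groups.

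Treatment with interferon-gamma gave no call among the channel genes. None of the 43 members passed the limma test at an adjusted p under 0.05 in either direction, where 1.12% of all genes were higher and 0.021% lower. At an unadjusted p under 0.05, Kcna4 was higher, where 5.27% of all genes were, and Scn7a, Kcna1 and Kcnd1 were lower, where 2.68% of all genes were. The lowest adjusted p of any member was 0.234, for Scn7a. The median difference over the members was -0.08, against 0.01 over all genes, and 25 of the 43 differences (58.1%) lay below 0, against 48.8% of all genes. For 33 members the 95% interval of the difference lay between -1 and 1, so a 2-fold change lay outside it, and for the other 10 (Scn7a, Scn9a, Scn11a, Cacna1e, Kcna1, Kcna4, Kcna5, Kcnb2, Kcnd2 and Kcnh5) it did not. The 12 neuron markers had differences below 0 throughout and a median of -0.16, with none past the threshold, and their part in the channel values was not tested.

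**Figure D2:**
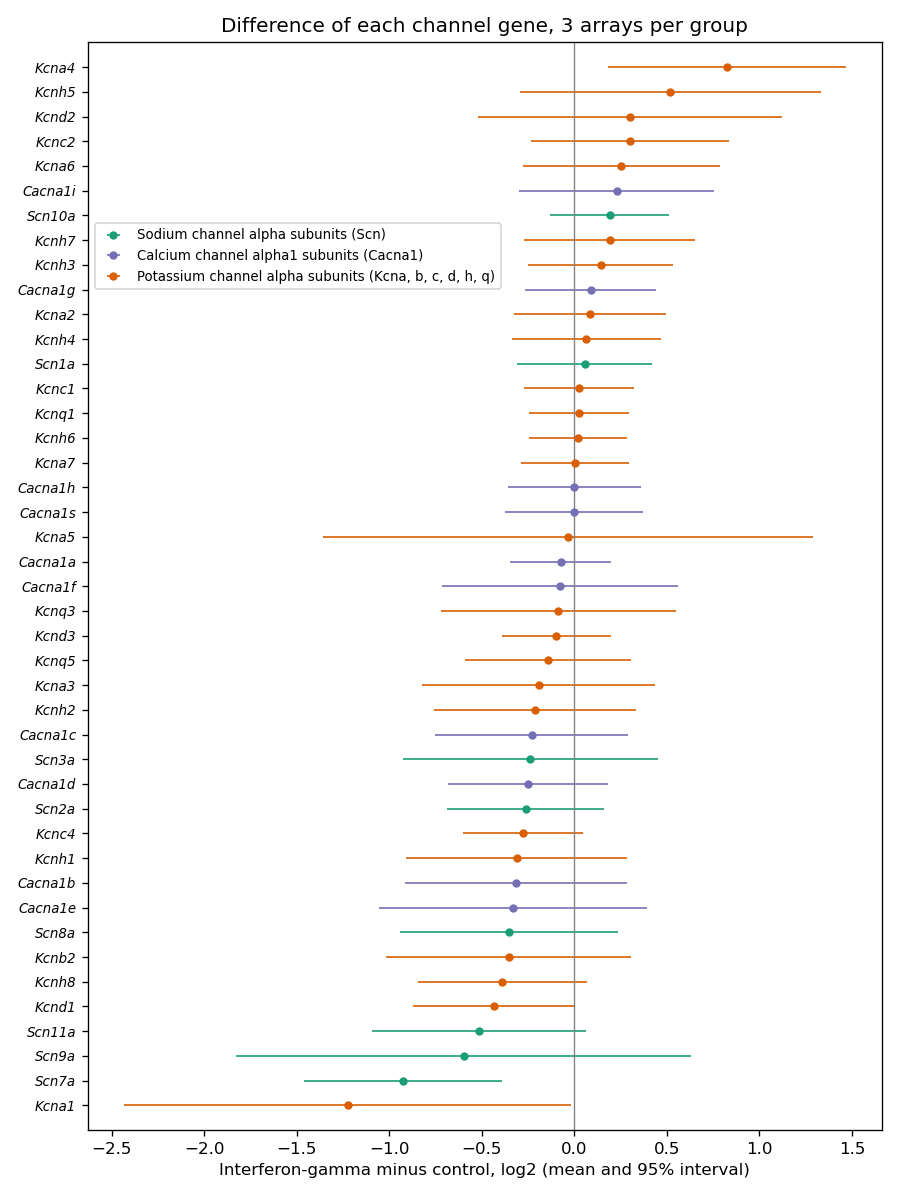
Difference between the interferon-gamma and the control mean on the log2 scale (horizontal axis) for each channel gene, with 95% intervals from the limma fit over 3 arrays per group, coloured by channel class. The differences run from -1.22 for Kcna1 to 0.82 for Kcna4, and no member passed after adjustment over all genes.

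Among sodium channels, Scn9a encodes Nav1.7, a channel known from sympathetic and pain-sensing neurons. Its ratios were 0.91, 2.24 and 1.67 on control arrays 1, 2 and 3, and 0.48, 2.02 and 0.52 on treated arrays 1, 2 and 3. Treated arrays 1 and 3 lay below every control, and treated array 2 lay among the controls, so the groups overlapped. The difference was -0.60 ± 0.51 (SE), with a 95% interval from -1.83 to 0.63 (adjusted p = 0.808), and without treated array 2 it was -1.10 ± 0.38 (adjusted p = 0.277). The 2 array features of Scn9a disagreed in size. The feature matched to accession L42338 read 1.06, 1.21 and 0.66 in controls and 0.48, 0.84 and 0.51 after treatment, and the feature of AK051636 read 0.76, 3.27 and 2.67 in controls and 0.47, 3.20 and 0.54 after treatment. The swings between arrays of one group were thus mainly in the second feature.

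Scn11a encodes Nav1.9, a channel for persistent sodium current known from sensory neurons. Control arrays gave 1.07, 1.23 and 1.89 and treated arrays 0.70, 1.09 and 0.86, so the groups overlapped in a single value, treated array 2 above control array 1. The difference was -0.51 ± 0.24 (SE; 95% interval -1.09 to 0.06, adjusted p = 0.659), and without control array 3 it was -0.27. Scn10a, its neighbour in the genome, encodes Nav1.8 and stood at 0.08 ± 0.11 (SD) in controls and 0.27 ± 0.16 after treatment.

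Scn7a encodes Nax, a sodium-level sensor rather than a classical voltage-gated channel, which is known from glia and Schwann cells. Its ratios were 0.04, -0.59 and -0.13 in controls and -0.99, -1.49 and -0.98 after treatment. All 3 treated values lay below all 3 controls, as 5.58% of all genes showed. The difference was -0.93 ± 0.22 (SE; 95% interval -1.46 to -0.39), which did not pass over all genes (adjusted p = 0.234, and 0.0863 to 0.606 over the alternatives run). Of 8 measured satellite and Schwann cell markers, 5 had differences below 0 and 3 above, and none passed. They ran from -1.07 for S100b (adjusted p = 0.564) through -0.32 for Cdh19, -0.08 for Sox10, -0.04 for Foxd3, -0.03 for Mbp, 0.08 for Erbb3 and 0.56 for Gfap to 0.64 for Fabp7. The list had a median difference of -0.04, with array medians of -0.87 to -0.27 in controls and -1.14 to -0.17 after treatment. The part of glial RNA in the Scn7a values was not tested.

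The other sodium channels lay closer to 0. Scn3a, which encodes Nav1.3, the channel of embryonic and injured neurons, read 0.23, 0.96 and 0.37 in controls and -0.08, 0.78 and 0.14 after treatment, and its groups overlapped. As in Scn9a, array 2 of each group was the highest, and the largest swing was in 1 of its 3 features, with 1.73 on control array 2 and 1.71 on treated array 2. Scn8a (Nav1.6, the channel of nodes and axon initial segments) differed by -0.35 ± 0.24 (SE), Scn2a (Nav1.2, of unmyelinated axons) by -0.26 ± 0.18 and Scn1a (Nav1.1) by 0.05 ± 0.15. For Scn1a the control ratios of 0.40, 0.21 and 0.66 and the treated ratios of 0.50, 0.35 and 0.58 overlapped, the treated ones lying within the range of the controls. Its 2 features had differences of opposite sign, 0.39 for AK046001 and -0.28 for L42339, so the gene mean describes neither. Opposite signs of the difference occurred in 10 of the 20 members with several features, among them also Kcnc1 (-0.27 to 0.44) and Kcnh7 (-0.14 and 0.52), and opposite signs of the control mean in 11.

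**Figure D3:**
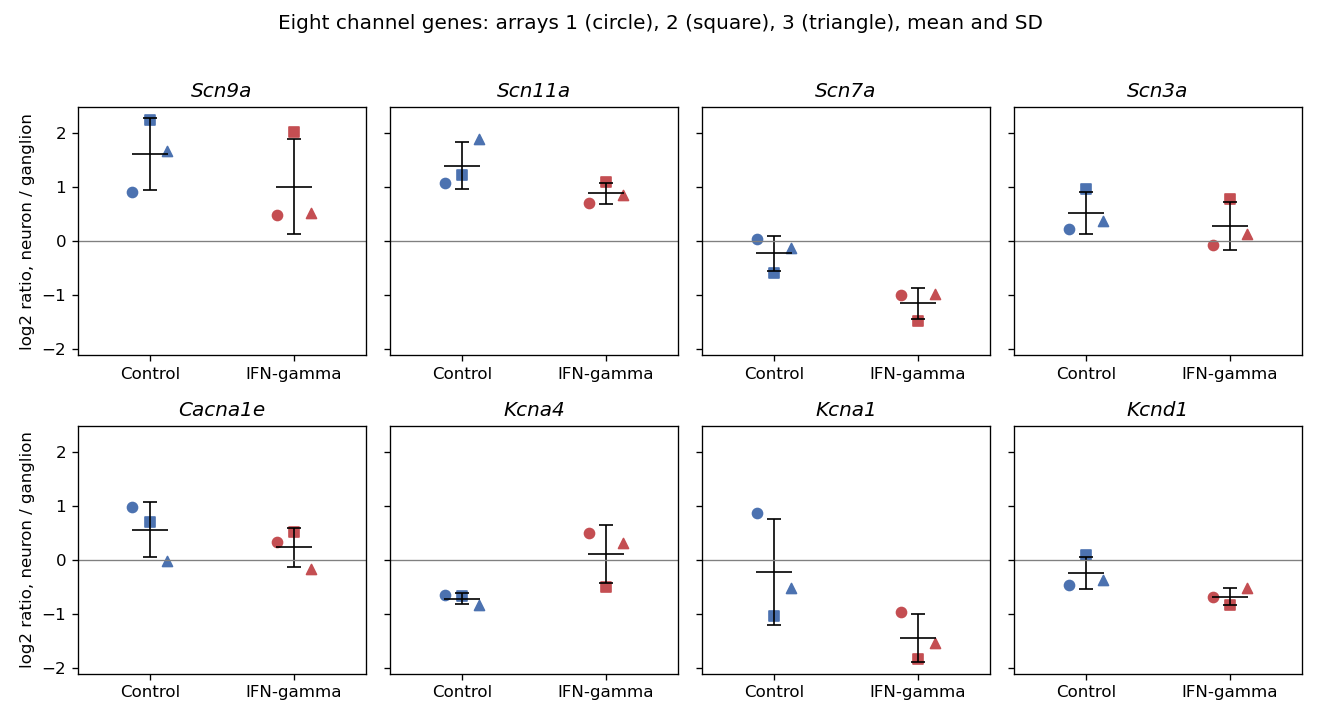
Log2 ratio of neurons over ganglion (vertical axis) for 8 channel genes on every array, with control arrays in blue, interferon-gamma arrays in red, array numbers as symbols, and black bars for the mean and SD of 3 arrays. Scn7a and Kcnd1 are below all controls on the 3 treated arrays, Kcna4 is above all controls, and the other 5 genes overlap between the groups.

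Promoter sequence was examined for 2 short motifs known from promoters of interferon-responsive genes. RefSeq windows of build GRCm38.p6, from 250 bases before to 50 after an annotated start, were available for 33 of the 43 members, in 42 windows. The gamma-activated sequence was searched as TTCNNNGAA, which reads the same on both strands. It was found in 4 member windows (9.52%), those of Scn2a, Scn9a, Cacna1c and Cacna1i, and in 8.30% of all 32851 windows. The interferon-stimulated response element, searched as GAAA, any 2 bases and GAAA, or on the other strand as TTTC, any 2 bases and TTTC, was found in 4 windows of Kcna7, Kcnc2 and Kcnd2 (9.52%), and in 3.44% of all windows. The 4 windows below set Irf1, a gene that passed the test, beside the member with the highest control ratio and the members with the lowest and highest test statistic, each 5′ to 3′ on the gene's strand, with gamma-activated sequences in capitals. Irf1 has 2 such windows, of which 1 is shown.
Irf1, chr11:53769764-53770063, plus strand: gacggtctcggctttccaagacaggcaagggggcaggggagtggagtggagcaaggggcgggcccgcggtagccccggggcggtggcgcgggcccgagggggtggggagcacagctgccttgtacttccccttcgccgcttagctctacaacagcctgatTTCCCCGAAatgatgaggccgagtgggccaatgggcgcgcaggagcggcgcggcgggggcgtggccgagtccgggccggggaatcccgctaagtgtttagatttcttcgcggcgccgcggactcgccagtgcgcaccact
Scn9a, chr2:66634913-66635212, minus strand: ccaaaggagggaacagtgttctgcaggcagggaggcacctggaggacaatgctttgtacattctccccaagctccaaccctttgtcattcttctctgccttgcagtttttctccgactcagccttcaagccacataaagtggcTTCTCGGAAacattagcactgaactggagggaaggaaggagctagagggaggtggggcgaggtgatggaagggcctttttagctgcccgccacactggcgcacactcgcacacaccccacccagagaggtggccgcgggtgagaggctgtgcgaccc
Scn7a, chr2:66784861-66785160, minus strand: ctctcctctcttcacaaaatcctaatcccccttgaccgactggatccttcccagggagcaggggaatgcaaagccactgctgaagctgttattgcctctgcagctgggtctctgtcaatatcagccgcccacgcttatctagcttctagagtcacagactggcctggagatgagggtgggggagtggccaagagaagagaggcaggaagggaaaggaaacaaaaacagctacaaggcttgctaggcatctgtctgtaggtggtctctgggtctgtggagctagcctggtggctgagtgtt
Kcna4, chr2:107290339-107290638, plus strand: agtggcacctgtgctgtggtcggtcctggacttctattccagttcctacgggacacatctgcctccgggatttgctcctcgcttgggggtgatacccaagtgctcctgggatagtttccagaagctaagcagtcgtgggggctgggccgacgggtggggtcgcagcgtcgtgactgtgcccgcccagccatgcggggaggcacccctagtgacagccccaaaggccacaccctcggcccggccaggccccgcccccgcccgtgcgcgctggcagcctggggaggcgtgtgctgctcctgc
The match is TTCCCCGAA in Irf1, beginning at position -90 from the annotated start, and TTCTCGGAA in Scn9a, beginning at position -107. Irf1 passed with a difference of 2.29, and Scn9a had a difference of -0.60 that did not pass. The Scn7a and Kcna4 windows held neither motif, which says only that these letters are not in the windows. A match is a description of the letters and not a bound site.

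Calcium channel genes had control means from -0.26 to 0.56 and differences from -0.33 to 0.23, and none of the 10 passed. The highest control mean was that of Cacna1e, the R-type channel, with 0.98, 0.71 and -0.02 in controls and 0.34, 0.51 and -0.17 after treatment. Cacna1e also had the largest difference of the family, -0.33 ± 0.30 (SE; 95% interval -1.05 to 0.39, adjusted p = 0.819), and control array 3 lay below treated arrays 1 and 2. Cacna1b, the N-type channel of noradrenaline release, read 0.55, 0.50 and -0.07 in controls and -0.40, 0.30 and 0.13 after treatment, so its groups overlapped, with a difference of -0.32 ± 0.25 (95% interval -0.92 to 0.28). Control array 3 was thus the lowest control of both genes.

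The L-type channels that couple activity to gene expression, Cacna1c and Cacna1d, differed by -0.23 ± 0.22 and -0.25 ± 0.18 (SE), and Cacna1a, the P/Q-type channel of synapses, by -0.07 ± 0.11. The T-type channels, which open at low voltages, had control means of -0.26 ± 0.06 (SD) for Cacna1g, the lowest of the family, -0.22 ± 0.21 for Cacna1h and -0.15 ± 0.42 for Cacna1i. Cacna1g read -0.24, -0.33 and -0.21 in controls and 0.06, -0.17 and -0.40 after treatment, and its groups overlapped. The channels best known from other tissues, Cacna1s of skeletal muscle and Cacna1f of the retina, had ratios of 0.28 ± 0.13 and 0.40 ± 0.41 in controls. For Cacna1s the 2 features had control means of -0.30 and 0.86 although both carry the same accession, so its gene mean describes neither of them.

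**Figure D4:**
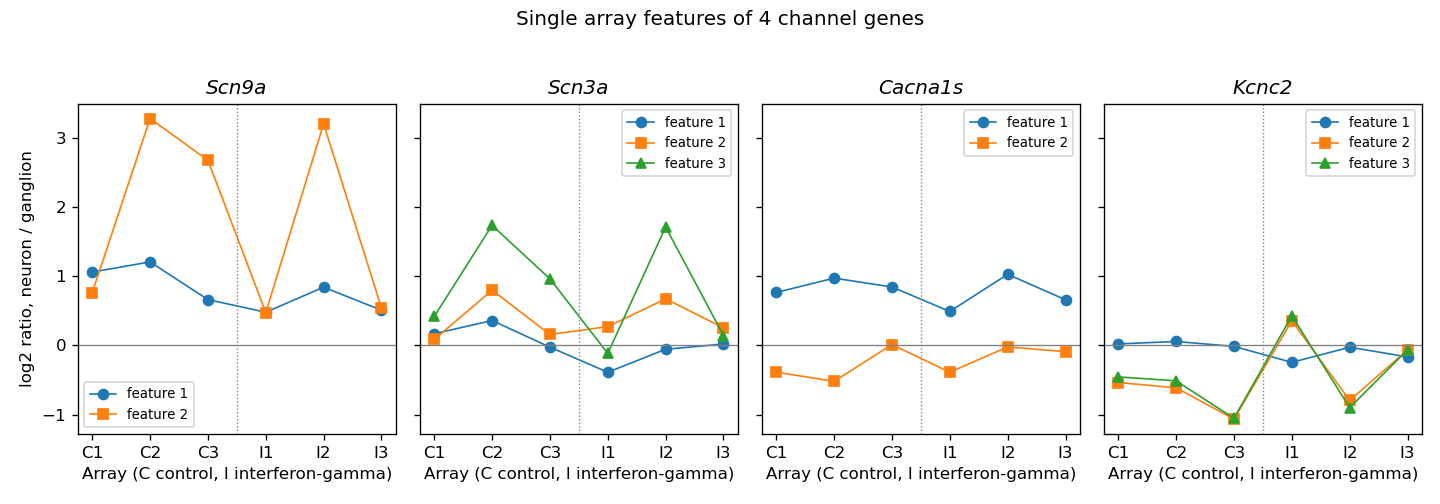
Log2 ratio of neurons over ganglion (vertical axis) on control arrays C1 to C3 and interferon-gamma arrays I1 to I3 (horizontal axis) for each single array feature of Scn9a, Scn3a, Cacna1s and Kcnc2. In Scn9a one feature reaches 3.27 and 3.20 on array 2 of either group while the other stays between 0.48 and 1.21, and in Cacna1s the 2 features keep apart on every array.

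The Kcna family, whose channels are relatives of the fly Shaker channel, held both the largest positive and the largest negative difference of all members, neither of which passed. Kcna4, which forms fast inactivating A-type channels, had the lowest control mean of all members and the largest positive difference. Its single feature read -0.66, -0.67 and -0.84 in controls and 0.49, -0.51 and 0.32 after treatment, so all treated values lay above the controls, as 8.08% of all genes showed, and treated array 2 lay nearest to them. The difference was 0.82 ± 0.27 (SE; 95% interval 0.18 to 1.47, adjusted p = 0.458). Without treated array 2 it was 1.13 ± 0.14 and passed the threshold (limma, adjusted p = 0.0159), where 2.66% of all genes passed in either direction. The adjusted p ranged from 0.0159 to 0.895 over the alternatives run.

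Kcna1, a channel of axons beside the node of Ranvier, had the largest negative difference, -1.22 ± 0.50 (SE; 95% interval -2.43 to -0.02, adjusted p = 0.622). Its controls spread from -1.04 on array 2 through -0.52 on array 3 to 0.87 on array 1, and treated arrays read -0.96, -1.85 and -1.54. Control array 2 lay below treated array 1, and without control array 1 the difference was -0.67. Kcna5 and Kcna6 lie on either side of Kcna1 in the genome. Kcna5, known for a fast delayed rectifier of heart muscle, differed by -0.03 ± 0.55 (SE), with a control SD of 1.01 that came from 1.42 on control array 2, and Kcna6 by 0.25 ± 0.22.

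Kcna7, known from muscle and heart, had the highest control mean of its family and the closest replicates among the high members, with 0.81, 0.85 and 1.07 in controls and 0.98, 0.89 and 0.88 after treatment. The groups overlapped, and the difference was 0.00 ± 0.12 (SE; 95% interval -0.29 to 0.30). Kcna2, a partner of Kcna1 in axons, differed by 0.08 ± 0.17. Kcna3, also a channel of T cells, had controls within 0.02 (SD) of -0.05, while its treated values were -0.76, 0.30 and -0.27.

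Channels of the Kcnb family carry delayed rectifier currents, and those of Kcnc open at high voltages and are known from fast-firing neurons. Kcnb2 read 0.68, 0.41 and 0.21 in controls and -0.47, 0.54 and 0.16 after treatment, with a difference of -0.36 ± 0.28 (SE). Kcnc4 had the highest control mean of the Kcnc genes, with 0.15, 0.09 and -0.17 in controls and -0.32, -0.29 and -0.14 after treatment, and its groups overlapped in control array 3 and treated array 3. Kcnc2 had the lowest, with -0.32, -0.35 and -0.71 in controls and 0.18, -0.57 and -0.10 after treatment, a difference of 0.30 ± 0.22. Of its 3 features, 2 moved with each other from -1.06 and -1.05 on control array 3 to 0.36 and 0.43 on treated array 1, and the third stayed between -0.24 and 0.06. Kcnc1 had controls of -0.28, -0.29 and -0.34, and a difference of 0.03 ± 0.12.

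The Kcnd genes encode the A-type channels of the cell body and dendrites. Kcnd1 read -0.46, 0.09 and -0.38 in controls and -0.69, -0.84 and -0.53 after treatment. Every treated value lay below the controls, as for 2 of the 43 members (4.65%) and 5.58% of all genes. The difference was -0.44 ± 0.18 (SE; 95% interval -0.87 to -0.0004, limma, adjusted p = 0.627). Without control array 2, the highest value, it was -0.27. Kcnd2, the lowest of the family in controls, read -0.25, -0.11 and -1.06, and 0.23, -0.73 and -0.02 after treatment. Kcnd3, the highest, read 0.04, 0.10 and 0.21 in controls and -0.06, 0.16 and -0.05 after treatment. Kcnd2 and Kcnd3 thus overlapped between the groups, and their differences were 0.30 ± 0.34 and -0.10 ± 0.12.

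The Kcnh genes fall into the EAG (Kcnh1 and Kcnh5), ERG (Kcnh2, Kcnh6 and Kcnh7) and ELK (Kcnh3, Kcnh4 and Kcnh8) channels, of which ERG channels are known to damp repeated firing and to repolarise the heart. Kcnh8 had the highest control mean of the family, with 0.98, 0.54 and 0.45 in controls and 0.09, 0.50 and 0.21 after treatment, a difference of -0.39 ± 0.19 (SE; adjusted p = 0.671). Kcnh5 had the lowest control mean and the largest difference, with -0.25, -0.76 and -0.81 in controls and 0.34, -0.82 and 0.21 after treatment, a difference of 0.52 ± 0.34 (adjusted p = 0.755), and 0.88 ± 0.21 without treated array 2 (adjusted p = 0.125). In Kcnh8, treated arrays 1 and 3 lay below the controls and array 2 among them. In Kcnh5, treated arrays 1 and 3 lay above the controls and array 2 just below the lowest of them. The remaining 6 genes differed by -0.31 (Kcnh1) to 0.19 (Kcnh7), and Kcnh6 was close to 0 on every array, from -0.08 to 0.09.

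Kcnq3 and Kcnq5 encode subunits of the M-current channel. Kcnq3 read 0.22, 0.39 and -0.27 in controls and -0.44, 0.36 and 0.15 after treatment, and its groups overlapped, with a difference of -0.09 ± 0.26 (SE; 95% interval -0.72 to 0.55). Kcnq5 read -0.41, 0.00 and -0.63 in controls and -0.33, -0.58 and -0.55 after treatment, a difference of -0.14 ± 0.19. The interval of Kcnq3 leaves room for 0.606 to 1.46 times the control level. Kcnq1, a channel of heart and epithelia, lay between -0.09 and 0.08 on all 6 arrays.

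A pattern over members went with single treated arrays. On treated arrays 1 and 3, 10 members lay below all 3 controls while array 2 did not, namely 5 of the 8 Scn genes (Scn2a, Scn3a, Scn8a, Scn9a and Scn11a), Cacna1c, Kcna3, Kcnb2, Kcnd3 and Kcnh8. This was 23.3% of the members and 7.94% of all genes, chosen after the values were seen and therefore not tested. The median shift of the Scn genes from the control mean was -0.56 on treated array 1, -0.02 on array 2 and -0.45 on array 3, and that of the Cacna1 genes was -0.23, 0.03 and -0.17, against 0.02, -0.01 and 0.02 for all genes. Without treated array 2, differences further from 0 included -0.49 for Scn3a, -0.41 for Cacna1c, -0.47 for Kcna3 and -0.59 for Kcnb2, and, outside the 10, 0.50 for Kcnc2 and 0.58 for Kcnd2, none of which passed. In the same fit, the median difference of all members was -0.17, and Scn9a, Scn2a and Scn7a stood at -1.10, -0.43 and -0.76 with adjusted p of 0.277, 0.268 and 0.195. The 338 genes with a control mean above 1, 2 of them members, had medians below 0 on the same arrays, as given above. Most of these 10 members have control means between -1 and 1, where no such medians were computed. The part of that shift in the pattern was not tested.

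Several of the genes are neighbours in the genome, and their values are given side by side. Scn3a and Scn2a are adjacent, with differences of -0.24 and -0.26. Scn1a, Scn9a and Scn7a follow each other with no other protein-coding gene between them, and their differences were 0.05, -0.60 and -0.93, with control means of 0.42, 1.61 and -0.23. Scn10a and Scn11a are also adjacent, with control means of 0.08 and 1.40. Kcna3 and Kcna2 are a further such pair, with differences of -0.19 and 0.08.

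The accessory subunits and partners of these channels, taken with other ion channels of neurons, gave the same count. Of 95 genes in 5 lists, 86 were measured, 30 of them other pore-forming channels. Of the 86, 0 passed (limma), and their median difference was -0.05. At an unadjusted p under 0.05, 1 of the 86 was higher and 4 were lower, where 5.27% and 2.68% of all genes were. The 17 channel anchoring and clustering genes had the highest control median of the lists, 0.72. Among them Ank2, a membrane anchor, stood at 1.78 ± 0.16 (SD) in controls, and Cntnap2, which clusters Kcna channels, at 1.47 ± 0.12. Ank2 had the largest negative difference of its list, -0.62 ± 0.32 (SE, adjusted p = 0.691). Without treated array 2 the difference was -0.98 and passed (limma, adjusted p = 0.0495), where 2.66% of all genes passed in either direction. Dlg1, a scaffold protein, had the largest positive difference there, 0.20 ± 0.23.

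Among 22 accessory and silent potassium channel subunits, Kcnip4, a calcium-binding partner of Kcnd channels, had the largest positive difference. It read -0.65, -0.31 and -0.13 in controls and 1.30, 0.26 and 1.52 after treatment. All treated values lay above the controls, as 8.08% of all genes showed, and treated array 2 lay nearest to them. The difference was 1.39 ± 0.34 (SE, adjusted p = 0.256). Without treated array 2 it was 1.78 ± 0.20 and passed (limma, adjusted p = 0.00995), where 2.66% of all genes passed in either direction. Kcne3, a small modulator of Kcnq channels, had the largest negative difference, -0.51 ± 0.25. The closest replicates were those of Kcns2, a silent partner of Kcnb channels, at 0.09, 0.10 and 0.08 in controls and -0.36, -0.37 and -0.47 after treatment (difference -0.49 ± 0.10, adjusted p = 0.158), a gene singled out after its values were seen.

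No gene of the remaining channel lists passed. Of the sodium channel beta subunits, Scn3b differed by 0.24 ± 0.18 (SE) and Scn2b by -0.19 ± 0.19. Among 15 calcium channel accessory subunits, the alpha2delta subunit Cacna2d4 differed by 0.63 ± 0.28 and Cacna2d3 by -0.42 ± 0.24, the latter from a control mean of 1.36 ± 0.10 (SD). Among 30 other ion channels of neurons, Kcnj10, an inward rectifier of glia, had the largest positive difference, 0.89 ± 0.69, from controls of -1.92, -2.84 and -1.91, and Kcnj12, another inward rectifier, the largest negative one, -0.61 ± 0.27. Of the marker lists for other cells, C1qa of 8 macrophage markers passed, at 1.64 ± 0.23 (adjusted p = 0.0288), and no marker of glia (8), fibroblasts (8), endothelium (9) or smooth muscle and pericytes (8) did. The median differences of these 5 lists were 0.60, -0.04, 0.04, -0.11 and -0.62. Single arrays varied more. Fibroblast marker medians were 0.08, -1.07 and -0.15 on control arrays 1, 2 and 3, and 0.53, -1.39 and -0.02 on treated arrays 1, 2 and 3. Glial marker medians were -0.27, -0.87 and -0.42 in controls, and -0.20, -1.14 and -0.17 after treatment. Array 2 had the lowest median of its group in each of these 5 lists, except for macrophage markers in controls. For the neuron markers it had the highest median of its group, 0.24 in controls and 0.05 after treatment. The part of these cell types in the channel values was not tested.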

How the data were processed

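The 6 two-colour arrays were analysed, 3 of control neurons and 3 of neurons given interferon-gamma, grouped by the labels. The authors deposited 1 log ratio per feature for 45220 features. Images were read with Agilent Feature Extraction, per the submitters' processing notes, which name no version. The deposited values were taken as log2 of Cy5 (neuron) over Cy3 (ganglion): the dyes are stated in the labels, the base was inferred from a range of -9.00 to 10.73, and the direction follows the usual convention and the rise of Irf1, which is therefore no independent check. Column medians lay between 0 and 0.005, so arrays had been centred by the authors.

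The platform annotation gave 1 gene for 33653 features, with symbols updated through RefSeq of GRCm38.p6, and features were averaged to 19087 genes. The 43 members have 71 features, and 23 members have a single one. Related channel genes are alike in sequence, so a feature of one may also bind RNA of another. Two-sided moderated tests of the group difference came from lmFit and eBayes of limma 3.58.1, run under R 4.3.3 over all genes, with Benjamini-Hochberg adjustment and a threshold of 0.05. The test was checked on simulated data with known changes. It recovered 51.75% of changes of 1 and 92.95% of changes of 2 on the log2 scale, and 5.31% of its calls were false.

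Members and lists were chosen with earlier results of these data known. Values on every array are given, in each family, for the genes of highest and lowest control mean and largest absolute difference, and for Scn9a, Scn3a, Cacna1b and Kcnq3 for their known roles. From the other channel lists, the largest rise and fall and any passing gene are given. Scn11a, Kcna3, Kcnc1, Scn1a, Cntnap2 and Kcns2 were added after their values were seen. Alternatives were other array scalings, feature medians, zeros as missing, array weights, a robust prior, the replicate number as a block, and leaving out each array. A filter on dim features could not be run without intensities.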

Additional observations from a re-analysis of the deposited data

How the results depend on the processing

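No member passed under any of the 7 alternatives that keep all 6 arrays, and leaving out single arrays gave 0 to 1, the 1 being Kcna4 without treated array 2. Accessory and other channel genes gave 0 likewise and 0 to 2 with single arrays left out, the 2 being Ank2 and Kcnip4 without treated array 2. The number of all genes called was 217, 151 to 288 with all arrays, and 113 to 508 with 1 left out (136 without control array 1, 133 without control array 2, 134, 508 and 113 without treated arrays 1, 2 and 3). With the replicate number as a block it was 166, and no member passed. Same-numbered arrays did not deviate together in every pair (r = 0.06, 0.31 and -0.03 for numbers 1, 2 and 3), so the numbers were not taken as pairs, and not every array correlated best with its own number. The median difference of the members stayed below 0 throughout, from -0.17 to -0.02 with arrays left out. Members above 2-fold on all controls numbered 2 under quantile normalization and 1 to 2 with control arrays left out, the 2 being Scn9a and Scn11a without control array 1, and 0 were below -1 throughout. Of 301 alternative control levels, 300 moved by less than the SD of the controls, and 1, that of Kcnc1 with feature medians, did not (-0.235 against -0.303).

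The sign of the difference held under every alternative for 27 members. With all arrays it turned for the interferon-gamma difference of Cacna1h (-0.0042 with quantile normalization, -0.0029 with scaled arrays and -0.030 with feature medians), the interferon-gamma difference of Kcnc1 (-0.019, -0.0041, -0.052 and, with array weights, -0.040) and the interferon-gamma difference of Kcnh4 (-0.0083 with array weights), all within the spread between replicates. With arrays left out, the ranges that cross 0 were -0.29 to 0.12 for Cacna1f, -0.026 to 0.20 for Cacna1g, -0.11 to 0.10 for Cacna1h, -0.013 to 0.37 for Cacna1i, -0.11 to 0.11 for Cacna1s, -0.057 to 0.20 for Kcna2, -0.47 to 0.064 for Kcna3, -0.42 to 0.54 for Kcna5, -0.046 to 0.085 for Kcna7, -0.060 to 0.094 for Kcnc1, -0.054 to 0.20 for Kcnh4, -0.025 to 0.046 for Kcnh6, -0.025 to 0.061 for Kcnq1, -0.28 to 0.14 for Kcnq3, -0.28 to 0.030 for Kcnq5 and -0.052 to 0.17 for Scn1a. The causes were not tested. With 3 arrays per group, signal over background unknown and 23 members on a single feature, changes of 2-fold, and for the members with the widest intervals larger ones, could be missed.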
